A study of Mus musculus with 2 samples.

Results

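The 8 receptor genes through which nerves and hormones set the contraction of gut muscle were followed in tunica muscularis of the mouse jejunum, the smooth muscle layers around the middle small intestine. They comprise the tachykinin receptors *Tacr1*, *Tacr2* and *Tacr3*, the muscarinic acetylcholine receptors *Chrm2* and *Chrm3*, the adrenergic receptor *Adrb3*, the serotonin receptor *Htr2b* and the ATP-gated channel *P2rx1*. Members were taken by gene symbol, and all 8 were found among the 18159 symbols listed in the mRNA-seq data. They had been chosen with their values in these libraries known, so their levels and ratios are a description and no test was made on them.

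The mice were C57BL/6, aged 15 days (P15), and carried Cre recombinase and eGFP under the *Myh11* promoter, which is active in smooth muscle cells (SMCs). In *Dnmt1*-KO mice Cre removes a floxed part of *Dnmt1*, the maintenance DNA methyltransferase. By the study's own description the *Dnmt1*-WT mice carry the same Cre-eGFP transgene, although the strain label lists floxed *Dnmt1* and the free-text description names the knockout for both samples. The title and genotype label were followed. Each genotype had 1 library, made from mice of both sexes, and it is not stated how their RNA was combined. The peeled muscle layer holds SMCs, interstitial cells of Cajal (ICC), enteric neurons, glia, vessels and leukocytes, and the *Myh11* promoter drives Cre in SMCs. Marker genes of fibroblasts, PDGFRA cells, adipocytes, enterocytes and pancreatic acinar cells were also found in these libraries, at sums that differed between them. In such bulk RNA, fewer cells of a type and less RNA per cell cannot be told apart.

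Values are FPKM, fragments scaled to transcript length and library size. This scaling does not remove differences in RNA composition between libraries, so ratios under other scalings are given below. The values summed to 429698 FPKM in *Dnmt1*-WT and 460845 FPKM in *Dnmt1*-KO. There were 16632 and 17055 genes above 0, with a lowest value above 0 of 0.03 FPKM in both. Read counts behind single genes are unknown, so no counting interval could be given. Because each genotype had 1 library, the differences below have no replicate check. *Dnmt1* was listed at 11.58 FPKM in *Dnmt1*-WT and 7.58 FPKM in *Dnmt1*-KO. All 12 smooth muscle markers of the tissue were present, led by *Acta2* at 5408.13 and 4016.24 FPKM, and all 12 were lower in *Dnmt1*-KO.

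As background, excitatory enteric motor neurons release acetylcholine together with the tachykinins substance P and neurokinin A. Acetylcholine acts on M2 and M3 receptors of SMCs, M3 coupling through Gq to calcium release and M2 coupling through Gi. Substance P prefers the NK1 receptor (*Tacr1*), neurokinin A the NK2 receptor (*Tacr2*) and neurokinin B the NK3 receptor (*Tacr3*). In the gut, NK2 is known as the main tachykinin receptor of SMCs, NK1 of ICC and neurons, and NK3 of neurons. The beta 3 adrenergic receptor (*Adrb3*) relaxes gut muscle through Gs and is also a receptor of fat cells, the serotonin receptor 5-HT2B (*Htr2b*) couples to Gq, and P2X1 (*P2rx1*) is a channel of arterial and bladder SMCs and of platelets.

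The DNA just upstream of 4 of these genes is shown because DNMT1 copies methylation at CpG sites. They are the tachykinin receptor with the lowest ratio (*Tacr2*), the tachykinin receptor with the most CpG (*Tacr3*), the most abundant receptor (*Chrm2*) and the only one that was at least 2-fold higher (*P2rx1*). Sequences are from RefSeq (GRCm38.p6), on the plus strand, 5′ to 3′, and end just before the first annotated transcript start, with each CpG in capitals. They lie at chr10:62252188-62252437 for *Tacr2*, chr3:134828757-134829006 for *Tacr3*, chr6:36387834-36387990 for *Chrm2* and chr11:72998895-72999055 for *P2rx1*. The *Chrm2* and *P2rx1* stretches end upstream of the gene starts given below, which are from GENCODE.
Tacr2: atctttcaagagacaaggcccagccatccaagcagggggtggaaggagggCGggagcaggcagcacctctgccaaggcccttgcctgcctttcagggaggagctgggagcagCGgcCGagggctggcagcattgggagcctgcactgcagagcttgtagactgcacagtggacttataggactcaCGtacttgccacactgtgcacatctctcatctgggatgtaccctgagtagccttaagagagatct
Tacr3: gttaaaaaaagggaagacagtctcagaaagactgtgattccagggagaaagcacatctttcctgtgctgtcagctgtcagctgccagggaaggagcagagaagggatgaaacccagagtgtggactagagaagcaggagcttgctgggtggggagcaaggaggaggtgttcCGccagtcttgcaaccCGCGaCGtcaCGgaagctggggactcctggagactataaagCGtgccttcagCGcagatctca
Chrm2: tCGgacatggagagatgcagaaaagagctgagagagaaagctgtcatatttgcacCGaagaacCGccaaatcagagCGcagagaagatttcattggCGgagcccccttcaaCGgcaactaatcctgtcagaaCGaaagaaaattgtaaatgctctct
P2rx1: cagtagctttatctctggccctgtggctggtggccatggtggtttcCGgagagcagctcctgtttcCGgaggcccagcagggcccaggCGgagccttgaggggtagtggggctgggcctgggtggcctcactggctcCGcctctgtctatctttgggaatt

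These stretches held 4 CpG in 250 bases for *Tacr2*, 7 in 250 bases for *Tacr3*, 7 in 157 bases for *Chrm2* and 4 in 161 bases for *P2rx1*. RefSeq windows of 300 bases, from 250 before to 50 after the start, were matched for 7 members, all but *Adrb3*. Over all 32851 such windows the median was 7 CpG, with quartiles of 3 and 20. The members stayed between these quartiles, from 4 CpG in *Htr2b* through 6 in *Tacr2*, 7 in *Tacr1* and *P2rx1*, 8 in *Tacr3* and 11 in *Chrm3* to 16 in *Chrm2*. None of the 7 thus had a window of the CpG-dense kind above the upper quartile. A CArG box, the site of serum response factor, was searched on both strands and found in 0 of the 7 windows, against 1.63% of all windows. The letters TATAAA on either strand were found in *Tacr3* alone, against 13.6% of all windows. A match or its absence describes only the letters in these windows, and methylation was not analysed here.

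The receptors differed widely in level in the *Dnmt1*-WT library. *Chrm2* was far above the others at 86.66 FPKM, higher than 95.5% of all detected genes. *Tacr2* followed at 15.36 FPKM, then *Htr2b* at 9.74, *Adrb3* at 7.39, *Tacr1* at 5.47, *Chrm3* at 3.16 and *Tacr3* at 1.28 FPKM. *P2rx1* was the lowest at 0.25 FPKM, with only 10.4% of detected genes below it. In the *Dnmt1*-KO library *Chrm2* was still the highest at 41.74 FPKM, but the order below it was *Htr2b* at 11.33, *Adrb3* at 9.84, *P2rx1* at 3.54, *Chrm3* at 2.05, *Tacr1* at 1.7, *Tacr2* at 0.53 and *Tacr3* at 0.44 FPKM. *Tacr2* thus moved from the second to the seventh place and *P2rx1* from the last to the fourth. How far neighbours in either order differ beyond replicate spread cannot be given with 1 library each.

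**Figure D1:**
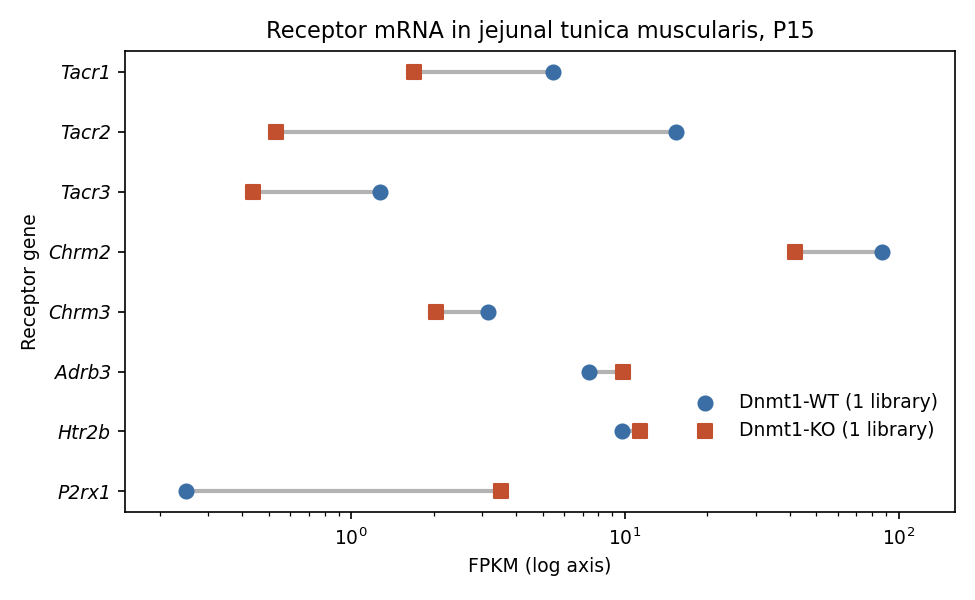
FPKM (log axis) of the 8 receptor genes in the *Dnmt1*-WT library (blue circles) and the *Dnmt1*-KO library (orange squares), joined by a grey line, 1 library each and no error bars. The line is longest for *Tacr2*, from 15.36 to 0.53 FPKM, and runs the other way for *P2rx1*, from 0.25 to 3.54 FPKM.

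Dividing the *Dnmt1*-KO value by the *Dnmt1*-WT value gave 0.5 or less for 4 of the 8 receptors, 2 or more for 1, and a ratio in between for 3. Among all 16102 genes above 0 FPKM in both libraries, 4.98% had a ratio of 0.5 or less and 11.8% a ratio of 2 or more. Among those with at least 1 FPKM in 1 library, as all members had, the shares were 3.67% and 9.14%. On the scale of log2(FPKM + 0.1) the median difference was -0.83 over the members and 0.02 over all genes above 0 in either library. Because the members had been picked from this same contrast, nothing is read from the comparison with the background. Against genes within 2-fold of its own *Dnmt1*-WT level and above 0 in both libraries, the share with a lower ratio was 0.964% for *Tacr1*, 3.46% for *Tacr3*, 3.29% for *Chrm2* and 12% for *Chrm3*. For *Tacr2* it was 0 of 5200 genes, and for *Htr2b*, *Adrb3* and *P2rx1* it was 75.9%, 84.7% and 98.3%.

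**Figure D2:**
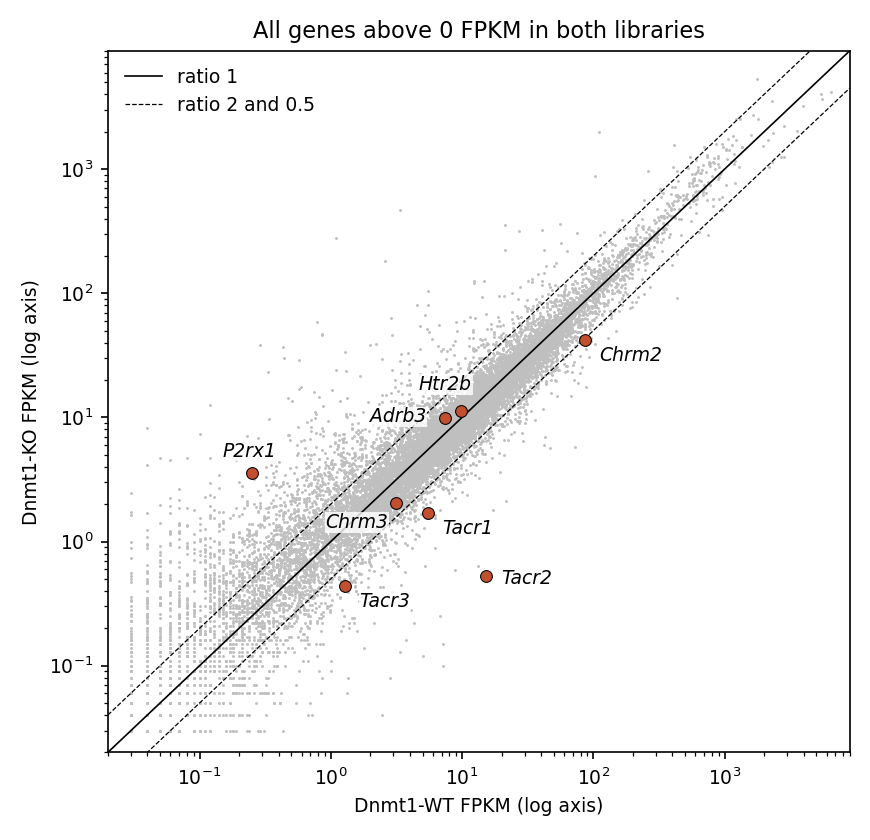
FPKM in *Dnmt1*-KO against FPKM in *Dnmt1*-WT (both log axes) for the 16102 genes above 0 in both libraries (grey), with the 8 receptors in orange, a solid line at a ratio of 1 and dashed lines at 2 and 0.5. *Tacr2* lies far below the lower dashed line, *Tacr1*, *Tacr3* and *Chrm2* just beyond it, and *P2rx1* above the upper one.

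The 3 tachykinin receptors were all lower in *Dnmt1*-KO. *Tacr2*, on chromosome 10 of GRCm38 from 62252438 to 62265990 (plus strand, 5 exons), went from 15.36 to 0.53 FPKM, 29.0-fold lower. As *Tacr2* had been picked with this ratio known, its rank is only a description. Of the 9197 genes at 5 FPKM or more in *Dnmt1*-WT and above 0 in *Dnmt1*-KO, 3 had a lower ratio, and a further 10 genes at that level were listed at 0 in *Dnmt1*-KO. *Tacr1*, on chromosome 6 from 82402334 to 82560104 (plus strand), went from 5.47 to 1.7 FPKM, 3.22-fold lower. *Tacr3*, on chromosome 3 from 134829007 to 134934579 (plus strand), went from 1.28 to 0.44 FPKM, 2.91-fold lower. The ratio of *Tacr3* is the least secure of these calls, since it became 0.632 when 1 was added to each FPKM, and that of *Tacr2* became 0.0935.

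The make-up of the tachykinin receptor mRNA differed between the libraries as well as its amount. The 3 genes summed to 22.11 FPKM in *Dnmt1*-WT and 2.67 FPKM in *Dnmt1*-KO, a ratio of 0.121. *Tacr2* was 69.5% of this sum in *Dnmt1*-WT and 19.9% in *Dnmt1*-KO, while *Tacr1* was 24.7% and 63.7% and *Tacr3* 5.79% and 16.5%. In other words, the level of *Tacr2* was 2.81 times that of *Tacr1* in *Dnmt1*-WT and 0.312 times in *Dnmt1*-KO.

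The main ligand gene was higher in *Dnmt1*-KO. *Tac1*, which encodes substance P and neurokinin A, was at 49.07 FPKM in *Dnmt1*-WT and 85.61 FPKM in *Dnmt1*-KO, a ratio of 1.74 that is short of 2-fold. The level of *Tac1* was 2.22 times the summed level of the 3 receptors in *Dnmt1*-WT and 32.1 times in *Dnmt1*-KO. The other tachykinin precursors were near the lower end of the scale, *Tac2* at 0 and 0.22 FPKM and *Tac4* at 0.11 and 0 FPKM. Of the peptidases that degrade tachykinins, *Ece1* was at 76.57 and 63.13 FPKM, *Ace* at 7.27 and 14.87 FPKM (ratio 2.05) and *Mme*, which encodes neprilysin, at 0.67 and 0.25 FPKM (ratio 0.373). *Ace* was no longer past 2-fold when scaled by the FPKM sum, and neither *Ace* nor *Mme* was when 1 was added to each FPKM.

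Several cell type markers moved beside the tachykinin receptors. The 12 smooth muscle markers had ratios between 0.427 and 0.893 with a median of 0.604, and summed to 19943.84 and 13582.15 FPKM. The ratios of *Tacr1*, *Tacr2* and *Tacr3*, between 0.0345 and 0.344, were all below that range, and that of *Tacr2* was 0.0571 times the markers' median. With 1 added to each FPKM, however, the ratio of *Tacr3* was 0.632, inside that range. The range is that of these 12 genes only, and *Rgs5*, abundant in pericytes and SMCs, had a ratio of 0.212. By flow cytometry at P15 the study found a smaller share of eGFP-positive SMCs in *Dnmt1*-KO. The 3 ICC markers *Kit*, *Ano1* and *Etv1* had ratios between 0.746 and 0.978 and summed to 123.85 and 104.29 FPKM. The 11 enteric neuron markers summed to 723.3 and 891.69 FPKM, and 8 of them were higher in *Dnmt1*-KO. Of 6 enteric glia markers, 4 were higher and 2 lower, with sums of 82.75 and 115.44 FPKM. Among 8 enterocyte markers, 7 were higher and 1 lower, with sums of 325.66 and 722.63 FPKM. All 4 fibroblast markers were higher, with sums of 2427.61 and 3880.03 FPKM. The 6 pancreatic acinar genes were all lower in *Dnmt1*-KO and summed to 37.35 and 2.97 FPKM, with *Cela2a*, *Cpa1*, *Cel* and *Pnlip* listed at 0 there. The part of these cells in the tachykinin receptor values was not tested.

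By the distance over log2(FPKM + 0.1) in both libraries, the genes nearest to *Tacr2* were *Ctrb1*, *Slc5a11*, *Nptx1*, *Lrrc10b* and *Akp3*, at distances of 0.30 to 1.43. Only 2 genes lay within a distance of 1 of it, *Ctrb1*, a pancreatic protease gene of the acinar list, at 13.26 and 0.63 FPKM and *Slc5a11* at 8.77 and 0.59 FPKM. *Tacr1* lay in a crowded range, with 554 genes within that distance. Its nearest were *Opcml*, *Ddo*, *Nme5*, *4930429F24Rik* and *Foxq1*, at 0.06 to 0.13.

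Both muscarinic receptors of the set were lower in *Dnmt1*-KO. *Chrm2*, on chromosome 6 from 36388084 to 36528414 (plus strand), went from 86.66 to 41.74 FPKM, 2.08-fold lower. *Chrm3*, on chromosome 13 from 9875486 to 10360847 (minus strand), went from 3.16 to 2.05 FPKM, a change of -35.1% that did not reach 2-fold. *Chrm2* was 27.4 times as abundant as *Chrm3* in *Dnmt1*-WT and 20.4 times in *Dnmt1*-KO. The ratios of *Chrm2* (0.482) and *Chrm3* (0.649) both lay within the range of the 12 listed smooth muscle markers. Those of the tachykinin receptors lay below it. For *Tacr3* this contrast was lost when 1 was added to each FPKM (ratio 0.632).

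The start of *Chrm2* overlaps *9330158H04Rik*, a non-coding gene on the minus strand from 36209620 to 36390191, listed at 5.09 and 1.29 FPKM (ratio 0.253). Whether the counting used strand is not given in the sources used here, so reads in the overlap may have been given to either gene.

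The other muscarinic receptors were within 2-fold or near the lower end of the scale. *Chrm1* was at 4.6 and 4.74 FPKM, *Chrm4* at 4.88 and 5.07 FPKM and *Chrm5* at 0 and 0.15 FPKM. As a result the summed muscarinic receptor level went from 99.3 to 53.75 FPKM, and the share of *Chrm2* in it from 87.3% to 77.7%. On the transmitter side, the vesicular transporter *Slc18a3* was at 19.22 and 33.31 FPKM, the synthetic enzyme *Chat* at 2.56 and 3.08 FPKM and the choline transporter *Slc5a7* at 10.15 and 9.89 FPKM. Of the enzymes that break acetylcholine down, *Ache* was at 39.24 and 55.82 FPKM and *Bche* at 35.55 and 16.94 FPKM, and *Bche* (ratio 0.477) was the only one of these 5 genes past 2-fold.

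**Figure D3:**
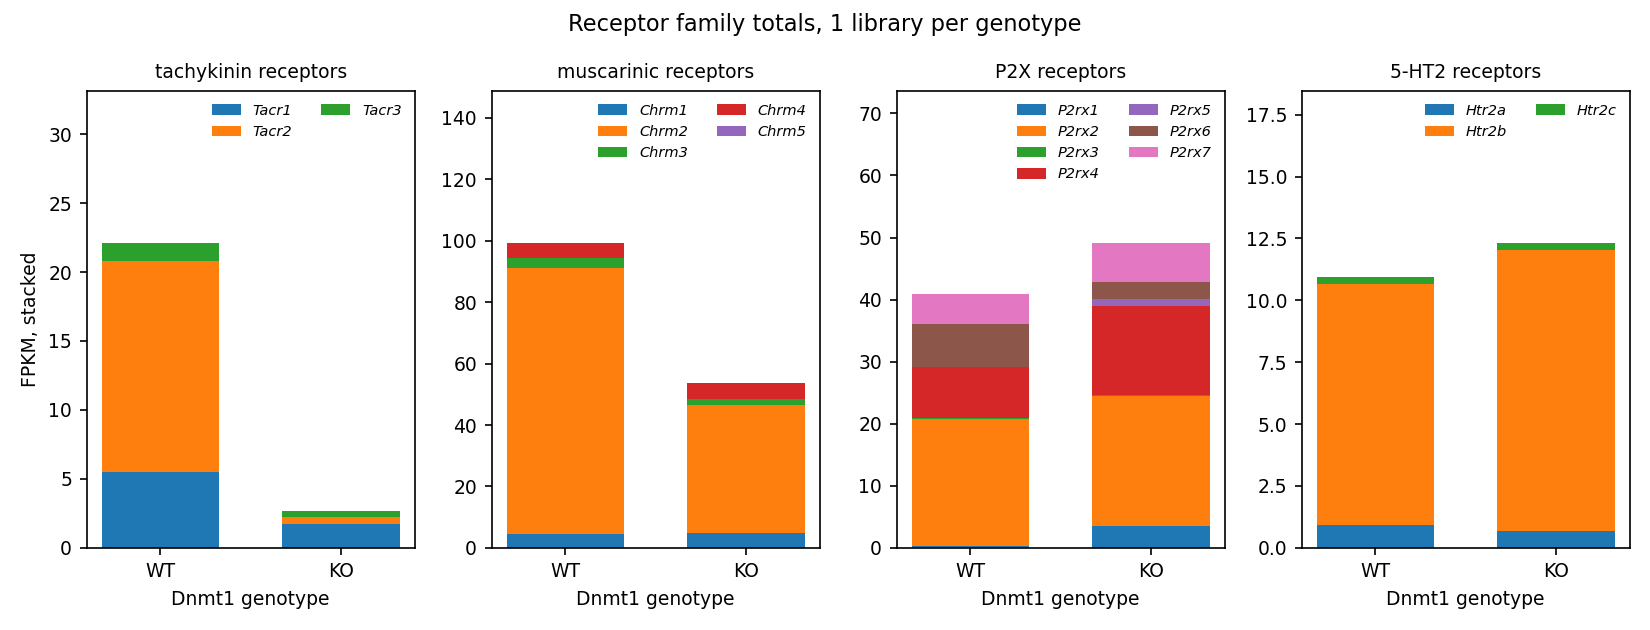
Stacked FPKM of 4 receptor families in the *Dnmt1*-WT and *Dnmt1*-KO libraries, 1 library each, with each panel on its own linear axis from 0. The tachykinin receptor bar drops from 22.11 to 2.67 FPKM and the muscarinic bar from 99.3 to 53.75 FPKM, while the P2X and 5-HT2 bars are slightly higher in *Dnmt1*-KO.

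*Adrb3* and *Htr2b* differed by less than 2-fold. *Adrb3*, on chromosome 8 from 27225776 to 27250616 (minus strand), was at 7.39 FPKM in *Dnmt1*-WT and 9.84 FPKM in *Dnmt1*-KO, a ratio of 1.33. The beta 1 receptor gene *Adrb1* was at 5.04 and 3.96 FPKM. Since *Adrb3* is also a receptor of fat cells, the adipocyte markers are given beside it. All 8 of the 9 markers that were above 0 in both libraries were at least 2-fold higher in *Dnmt1*-KO, beside 11.8% of all genes. *Lep* was at 0 in *Dnmt1*-WT, and the list summed to 116.25 and 1256.63 FPKM. Its most abundant gene, *Fabp4*, was at 103.72 and 874.84 FPKM. The part of adipocytes in the *Adrb3* values was not tested.

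The alpha adrenergic receptors were mixed. *Adra2a* was at 9.86 and 10.41 FPKM and *Adra2b* at 7.25 and 4.15 FPKM, while *Adra1a* was at 2.47 and 1.45, *Adra2c* at 1.13 and 0.9, *Adra1d* at 0.18 and 0.82 and *Adra1b* at 0 and 0.71 FPKM. *Adra1d* (ratio 4.56) was the only one of the 5 alpha receptors above 0 in both libraries that was past 2-fold, and it stayed under 1 FPKM. Among genes for noradrenaline, *Dbh*, its synthetic enzyme, was at 13.26 and 21.91 FPKM, *Th* at 0.25 and 0.66 FPKM, and the transporter *Slc6a2* was listed at 0 in both.

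*Htr2b*, on chromosome 1 from 86099026 to 86111970 (minus strand), was at 9.74 and 11.33 FPKM, a ratio of 1.16. The gene lies inside *Psmd1*, a proteasome subunit gene on the plus strand, at 55.34 and 51.45 FPKM, so unstranded reads from unspliced *Psmd1* could have been counted there. *Htr2b* was 89.0% of the summed 5-HT2 receptor level in *Dnmt1*-WT and 92.0% in *Dnmt1*-KO, with *Htr2a* at 0.91 and 0.69 FPKM and *Htr2c* at 0.29 and 0.3 FPKM. The most abundant serotonin receptor of the tissue was *Htr3a*, an ion channel subunit of enteric neurons, at 40.59 and 44.3 FPKM, followed by *Htr2b* itself and by *Htr3b*, the partner of *Htr3a*, at 6.32 and 6.65 FPKM. *Htr4* was at 1.19 and 0.93 FPKM and *Htr7* at 0.17 and 0.73 FPKM. The remaining serotonin receptors listed, *Htr1b*, *Htr1d*, *Htr1f*, *Htr5a* and *Htr6*, were under 1 FPKM in both libraries. Of the genes that make, take up and break down serotonin, *Maoa* was at 13.23 and 11 FPKM and *Slc6a4* and *Tph1* were under 1 FPKM.

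*P2rx1* was the only receptor of the set that was at least 2-fold higher in *Dnmt1*-KO. Located on chromosome 11 from 72999103 to 73015200 (plus strand, 12 exons), it went from 0.25 to 3.54 FPKM, a ratio of 14.2. Of the 13497 genes at 1 FPKM or more in *Dnmt1*-KO and above 0 in *Dnmt1*-WT, 94 had a higher ratio. The size of this ratio rests on a *Dnmt1*-WT value near the lower end of the scale and became 3.63 when 1 was added to each FPKM. Ratios of genes weak in *Dnmt1*-WT scattered more and tended upward. The upward shift can be built in, because these genes were chosen on the value that divides. Among the 1340 other genes within 2-fold of the *Dnmt1*-WT level of *P2rx1*, the median ratio was 1.44 and the 5th and 95th percentiles were 0.325 and 7.53.

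Within the P2X family *P2rx1* went from 0.61% to 7.21% of the summed level. *P2rx2*, a subunit of enteric neurons, was the most abundant at 20.48 and 20.88 FPKM. *P2rx4*, which is common in macrophages, was at 8.18 and 14.2 FPKM and *P2rx7* at 4.9 and 6.24 FPKM. *P2rx5* was listed at 0 in *Dnmt1*-WT and at 1.28 FPKM in *Dnmt1*-KO, and *P2rx3* was under 1 FPKM in both. *P2rx6* was the only other P2X gene above 0 in both libraries that was past 2-fold, and it was lower, at 7.01 and 2.72 FPKM (ratio 0.388). Of the P2Y receptors, *P2ry1*, a receptor of PDGFRA-positive cells in gut muscle, was at 10.88 and 5.12 FPKM (ratio 0.471), whereas *P2ry14* was at 6.01 and 12.09 FPKM (ratio 2.01) and *P2ry6* at 7.51 and 13.35 FPKM. The PDGFRA cell markers *Pdgfra* and *Kcnn3* were at 68.95 and 40.72 FPKM and at 32.46 and 15.93 FPKM.

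Markers of blood and vessel cells were given beside *P2rx1*, and most were higher in *Dnmt1*-KO. Of the 8 leukocyte markers, 7 were at least 2-fold higher, and their sum went from 28.32 to 94.33 FPKM. Of the 7 endothelial markers, 5 were at least 2-fold higher, and their sum went from 47.82 to 113.75 FPKM. These shares of 87.5% and 71.4% stand beside 11.8% of all genes above 0 in both libraries. The endothelial count became 4 when scaled by the FPKM sum and 3 when 1 was added to each FPKM. Of the 5 platelet and megakaryocyte markers, *Pf4*, which macrophages also express, was at 18.55 and 54.41 FPKM, *Itga2b* at 11.55 and 4.13 FPKM, and *Gp9*, *Gp1ba* and *Ppbp* were under 1 FPKM in both, with *Ppbp* at 0 in *Dnmt1*-WT. The part of these cells in the *P2rx1* values was not tested.

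Over the 83 listed receptor genes outside the 8, which include the relatives above, 72 were above 0 in both libraries, and 9 of these had a ratio of 0.5 or less (12.5%, beside 4.98% of all genes) and 8 a ratio of 2 or more (11.1%, beside 11.8%), with 35 lower and 37 higher in all. Their median log2 ratio of FPKM + 0.1 was 0.07. Of the 55 with at least 1 FPKM in 1 library, which include *P2rx5* with no ratio, 7 had a ratio of 0.5 or less and 2 a ratio of 2 or more, where the shares over all genes were 3.67% and 9.14%. Of the 48 receptors for other peptides, prostanoids and amines, 43 were above 0 in both libraries, with 6 at a ratio of 0.5 or less (14%) and 5 at 2 or more (11.6%). Those that also reached 1 FPKM were 5 lower and 1 higher in *Dnmt1*-KO. The lower ones were the galanin receptor *Galr2* (26.96 and 8.95 FPKM), the neurotensin receptor *Ntsr1* (8.72 and 3.85 FPKM), the prostaglandin E2 receptor *Ptger2* (2.63 and 1.03 FPKM), the neuromedin U receptor *Nmur1* (2.9 and 1.05 FPKM) and the gastrin-releasing peptide receptor *Grpr* (1.54 and 0.43 FPKM). Only the neuropeptide Y receptor *Npy1r* was higher, at 1.85 and 4.13 FPKM. The thrombin receptor *F2r* was the most abundant of this list, at 34.32 and 50.58 FPKM.

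Of 20 genes of the Gq and RhoA pathway, which carries receptor signals inside the cell, 1 had a ratio of 0.5 or less and 1 a ratio of 2 or more, or 5.0% each, beside 4.98% and 11.8% of all genes, with a median log2 ratio of -0.06. *Plcb4*, a phospholipase C that Gq activates, was at 28.92 and 14.12 FPKM (ratio 0.488), and *Gna15*, the gene with the higher ratio, was under 1 FPKM. *Gnaq*, the Gq subunit itself, was at 37.48 and 27.4 FPKM, its close relative *Gna11* at 38.39 and 39.99 FPKM, the calcium release channel *Itpr1* at 25.65 and 15.64 FPKM, and *Rhoa*, the most abundant, at 189.86 and 184.98 FPKM. Of 14 genes of the Gi and Gs pathway, 0 had a ratio of 0.5 or less, and *Adcy4* alone was past 2-fold, at 1.96 and 4.47 FPKM. In this list 9 genes were lower and 5 higher, with a median log2 ratio of -0.33. *Gnas*, which encodes the Gs subunit, was at 593.99 and 660.93 FPKM. When 1 was added to each FPKM, none of *Plcb4*, *Gna15* and *Adcy4* stayed past 2-fold.

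Of 12 genes that end receptor signalling, 3 had a ratio of 0.5 or less (25%, beside 4.98% of all genes) and 1 a ratio of 2 or more (8.33%, beside 11.8%), with a median log2 ratio of 0.28. The count of 3 became 2 when the libraries were scaled by the median or trimmed mean of log2 ratios or by the upper quartile, and 4 when scaled by the FPKM sum, as *Grk4* (ratio 0.496) and *Arrb1* lie close to the threshold. *Rgs5*, a GTPase activator for Gq and Gi that is abundant in pericytes and SMCs, went from 434.65 to 91.95 FPKM (ratio 0.212). *Rgs2*, which acts on Gq, went from 32.68 to 15.65 FPKM and the receptor kinase gene *Grk4* from 2.66 to 1.32 FPKM. *Grk5*, another receptor kinase, went from 1.81 to 5.64 FPKM (ratio 3.12). The remaining 8 of these 12 genes lay within 2-fold, among them *Arrb1* at 39.7 and 19.99 FPKM and *Rgs4* at 31.92 and 42.55 FPKM.

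**Figure D4:**
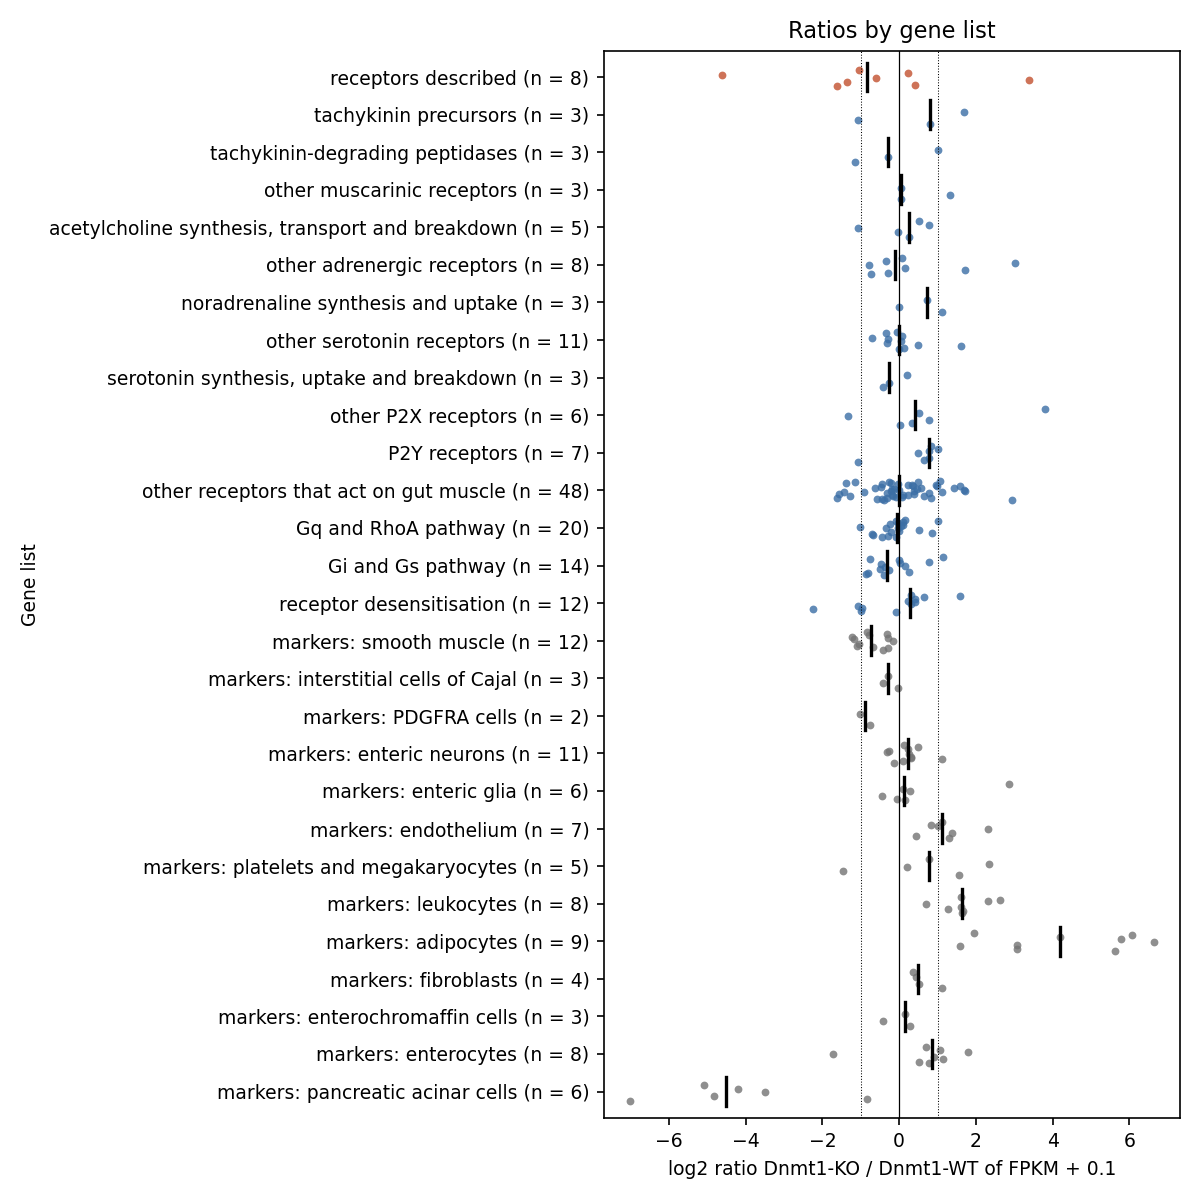
log2 ratio of *Dnmt1*-KO to *Dnmt1*-WT of FPKM + 0.1 for each gene of each list, with the list median as a black bar, a solid line at 0 and dotted lines at -1 and 1. The 8 receptors (orange) spread from -4.62 to 3.38 around a median of -0.83. The medians of the Gq and RhoA, Gi and Gs, and desensitisation lists lie at -0.06, -0.33 and 0.28. Among the marker lists (grey), the medians of pancreatic acinar genes (-4.51), PDGFRA cells (-0.89), smooth muscle (-0.73) and ICC (-0.3) lie below 0. Those of the other marker lists, among them leukocytes (1.63) and adipocytes (4.2), lie above it.

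The number of transcript variants found per gene was lower for 3 of the receptors. It is no separate support for the ratios, since genes with a lower level more often had fewer variants, as given below. The study also lists fewer mapped reads for *Dnmt1*-KO than for *Dnmt1*-WT. *Tacr2* had 3 variants in *Dnmt1*-WT and 2 in *Dnmt1*-KO, *Chrm2* had 4 and 3, and *Chrm3* had 4 and 2. The other 5 receptors kept their number, 3 for *Adrb3* and *Htr2b* and 1 for *Tacr1*, *Tacr3* and *P2rx1*. A gene above 0 in both libraries has at least 1 variant, so the last 3 could not have fewer (0 of 6758 such genes did). Among all 1099 genes with 4 variants in *Dnmt1*-WT and above 0 in both libraries, 39.2% had fewer in *Dnmt1*-KO and 8.64% had fewer by at least 2, as *Chrm3* did. Among the 2540 genes with 3 variants, 28.7% had fewer. Among genes at 1 FPKM or more in *Dnmt1*-WT with a ratio of 0.5 or less, as for *Tacr2* and *Chrm2*, the share with fewer was 54.4% of 79 genes with 3 variants and 56.5% of 46 genes with 4. Which variants were found is not listed in the table, and GENCODE release M21 has 1 transcript of *Tacr2*, 2 of *Chrm2* and 4 of *Chrm3*.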

How the data were processed

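The authors prepared TruSeq RNA libraries from jejunal tunica muscularis and mapped the reads to GRCm38. The submitters' processing notes name TopHat 1.4.1 and Cufflinks 2.0.2. The deposited table holds 1 row per gene symbol with an FPKM value and a count of detected transcript variants for either library, and the authors' ratio, which was not used. Every column used was matched to a sample, and 0 were left without one. Commas inside large values were removed and nothing else was changed. An alternative counted as moved where a value shifted by over 1.5 times or crossed 2-fold, since no replicates or counts give an interval.

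Ratios are plain ratios of FPKM of *Dnmt1*-KO to *Dnmt1*-WT, unscaled, with 2 or more and 0.5 or less taken as past 2-fold over genes above 0 in both libraries. List medians used FPKM + 0.1. With 1 library per genotype no test was made. The members and the lists of related genes and cell type markers were chosen with earlier results of these data known. Of 240 list genes, 237 were in the table. Named were all members, their receptor families and transmitter genes, and in wider lists the genes past 2-fold that reach 1 FPKM, with the most abundant gene and others as examples. A related receptor gene is not reported here. Nearest genes used Euclidean distance over log2(FPKM + 0.1). Gene positions came from GENCODE release M21. Counting and scaling were tested on simulated data. Python 3.11.15, numpy 2.4.6, pandas 2.3.3 and matplotlib 3.10.9 were used.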

Additional observations from a re-analysis of the deposited data

How the results depend on the processing

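Scaling the libraries by the median or trimmed mean of log2 ratios, by the upper quartile or by the FPKM sum multiplied the *Dnmt1*-KO values by 0.932 to 1.021 and moved none of the 8 members across 2-fold. By the FPKM sum, the counts for the 83 other receptors went from 9 lower and 8 higher to 10 and 7, and *P2ry14* was no longer past 2-fold. Over these scalings, ratios ranged from 0.0322 to 0.0352 for *Tacr2*, from 0.29 to 0.317 for *Tacr1*, from 0.449 to 0.492 for *Chrm2* and from 13.2 to 14.5 for *P2rx1*. Adding 1 to each FPKM moved *Tacr2* to 0.0935, *Tacr3* to 0.632 and *P2rx1* to 3.63, so that *Tacr3* was no longer past 2-fold, and put 3 of the 83 other receptors past 2-fold downward and 1 upward, the latter *P2rx5*, which is at 0 in *Dnmt1*-WT and has no ratio otherwise, so that none of the 8 higher ones kept its call. With at least 1 FPKM required in 1 library, 7 of the other receptors were past 2-fold downward and 2 upward. At a fold of 1.5, 14 were lower and 17 higher, and at a fold of 3, 2 of the 8 members were lower. No direction of a member reversed. Of the values under alternatives, 69 for the member ratios and receptor counts stayed close to the main value and 9 moved. For list counts and medians, 491 stayed close and 55 moved by over 1.5 times or crossed 2-fold. The cause was not tested. No paired analysis was possible because each genotype has 1 library. Depth per gene is unknown, which limits every value near 0.03 FPKM.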

Other observations

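Genes beside *Tacr2* and *P2rx1* are given by position. Within 200 kb of either end of *P2rx1*, 9 of 11 other protein-coding genes were listed and 8 were above 0 in both libraries, of which 0 had a ratio of 0.5 or less and 1 a ratio of 2 or more. That gene, *Itgae*, an integrin subunit of intraepithelial lymphocytes, was at 0.06 and 1.2 FPKM in *Dnmt1*-WT and *Dnmt1*-KO. Among all genes above 0 in both libraries, 4.98% had a ratio of 0.5 or less and 11.8% a ratio of 2 or more. *P2rx5*, whose start lies 161 kb from that of *P2rx1*, was listed at 0 and at 1.28 FPKM, while *Camkk1*, 19.9 kb away, was at 5.18 and 4.82 FPKM. The calcium pump gene *Atp2a3*, on the other side, was at 80.05 and 43.14 FPKM. Around *Tacr2*, 6 of 8 protein-coding neighbours were above 0 in both libraries. *Tspan15*, the nearest, was at 12.27 and 7.03 FPKM and *Hk1* at 66.21 and 52.91 FPKM. The neighbours past 2-fold were *Hkdc1*, at 0.65 and 2.08 FPKM, and *4930507D05Rik*, at 0.36 and 0.06 FPKM. These genes were chosen by position, after the values of the members were seen, and nothing is read from their counts.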
